A study of Mus musculus with 386 samples.

Results

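The genes described here encode the proteins of the mitochondrial ribosome. They were chosen by symbol, as rows of the count table that start with Mrpl or Mrps followed by a digit, and 5 pseudogene rows ending in -ps and a number were left out. This gave 78 of the 54658 gene rows. The study collected single female germ cells by hand from dissociated mouse ovaries of no stated strain or genotype, at E17.5 (day 17.5 of gestation), P2.5 and P6.5 (days 2.5 and 6.5 after birth), with no treatment named. Each cell was made into its own library with Smart-seq2, which copies and amplifies polyadenylated RNA. The 362 cells used here were 22 from E17.5, 47 from P6.5 and the others from P2.5. The labels name no animal or litter, so each stage counts as 1 sample with no replicate check, and no test of a difference between stages was made. Spread is given over cells, which are not replicates.

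Mitochondria keep a small genome of their own, and the proteins it encodes, all of them subunits of the respiratory chain and the ATP synthase, are made on mitochondrial ribosomes. The ribosomal RNAs of these particles come from the mitochondrial genome, while every ribosomal protein is encoded in the nucleus, made in the cytosol and imported. Some of the proteins have counterparts in bacterial ribosomes and others exist only in mitochondria. Around the time of birth oocytes come to rest late in meiotic prophase, become enclosed in primordial follicles and, in a minority, start to grow, a phase in which their mitochondria multiply.

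Libraries held 435560 to 23982709 gene counts. Among the P2.5 libraries, 24 pairs had a median chi-square per gene of 0.686 to 1.03, against 2.31 or more for other nearest pairs. The 24 pairs differed by more than sampling noise alone gives, but far less than other pairs, and were counted as 1 cell each. All 6 germ cell markers (Ddx4, Dazl, Dppa3, Mael, Taf4b, Sycp3) were at 1 count-per-million (CPM) or more in the sum of each stage. Their summed level ran from 246.6 to 5294 CPM over E17.5 cells. The range was 2002 to 7680 CPM for P2.5 cells, and P6.5 cells held 3636 to 6741 CPM. E17.5 libraries 8, 10, 15 and 16 had under 0.25 of their stage's median of these markers. Of 35 markers of granulosa, erythroid, mast, stromal, endothelial and immune cells, 26 were at 1 CPM or more at E17.5, 16 at P2.5 and 11 at P6.5. Their summed level was 244.5 to 112744 CPM over E17.5 cells with a median of 3252 CPM, against medians of 91.6 CPM (11.7 to 2635) in P2.5 cells and 52.02 CPM (19.2 to 905) in P6.5 cells. The E17.5 sum held all 5 erythroid markers and 5 of 6 mast cell markers, with Fcer1a at 0.

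The mitochondrial ribosomal protein genes were expressed in nearly every cell. At least 75 of the 78 rows had a count in each of the 362 cells. Mrpl53 was the exception: it had 0 counts at E17.5 and P2.5 and 1 cell with a count at P6.5, although its deposited FPKM (fragments per kilobase, scaled to library size) had medians of 56.8, 55.5 and 60.5. All 695 exon bases of its principal transcript are shared on the same strand with another annotated gene, Gm42688. The other 77 members were measured in each comparison, meaning at least 1 CPM in either stage and counts in at least 3 cells.

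Levels of different members are compared here only as FPKM, which divides by length. Over P2.5 cells the highest median FPKM values were 487 for Mrpl23, a protein at the exit of the nascent peptide tunnel, 378 for Mrps21, a small subunit protein with a bacterial counterpart, 303.5 for Mrpl54 and 277.7 for Mrpl30. The lowest were 9.60 for Mrpl19, 10.7 for Mrpl50, 16.4 for Mrpl1 and 18.7 for Mrps30. Mrps30 is, despite its name, a component of the large subunit. Transcripts of proteins that occur together in a particle were thus far apart in level per length.

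The summed level of the genes was higher after birth than before. It had a median of 5616 CPM over E17.5 cells (2926 to 7147), 7012 CPM over P2.5 cells (4318 to 11908) and 6539 CPM over P6.5 cells (5278 to 8040). The P2.5 median was 1.25 times that of E17.5, and the ranges overlapped. In CPM 45.1% of the P2.5 cells exceeded the highest E17.5 value, and in the sum of FPKM 21.2% did. The P6.5 median was 0.933 times that of P2.5, and every P6.5 cell lay inside the P2.5 range. The coefficient of variation (CV) over cells was 20.9%, 18.3% and 8.30%, and in the sum of FPKM it was 21.9%, 24.6% and 8.92%, so P6.5 had the smallest spread in both tables and the order of the other stages differed between them. The 4 E17.5 libraries low in germ cell markers had sums of 6826, 2926, 7099 and 6134 CPM, so they included the lowest E17.5 cell and 2 of the 3 highest. Without them the E17.5 median was 5466 CPM and the CV 17.9% (16.7% in FPKM). Only 2 of the 22 E17.5 cells carried 1000 CPM or less of the markers of other cell types, and the part of those markers in the difference was not tested. The sum of FPKM gave the same order of medians, 7027, 8961 and 8225.

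Against the ERCC spike-in RNAs counted in the same libraries, the same genes differed far more between stages. The median was 438 mitoribosome counts per 1000 spike-in counts in E17.5 cells (51.3 to 978). It was 3485 in P2.5 cells (387 to 15342), and P6.5 cells had 22110 (12480 to 44835). These are ratios of medians of 7.96 and 6.34 between successive stages. All gene counts per spike-in count had medians of 81.3, 465 and 3203, so most of this difference was shared with the whole transcriptome. The sources used here do not give the amount of spike-in per cell, and an equal amount in each cell is assumed on this scale only.

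**Figure D1:**
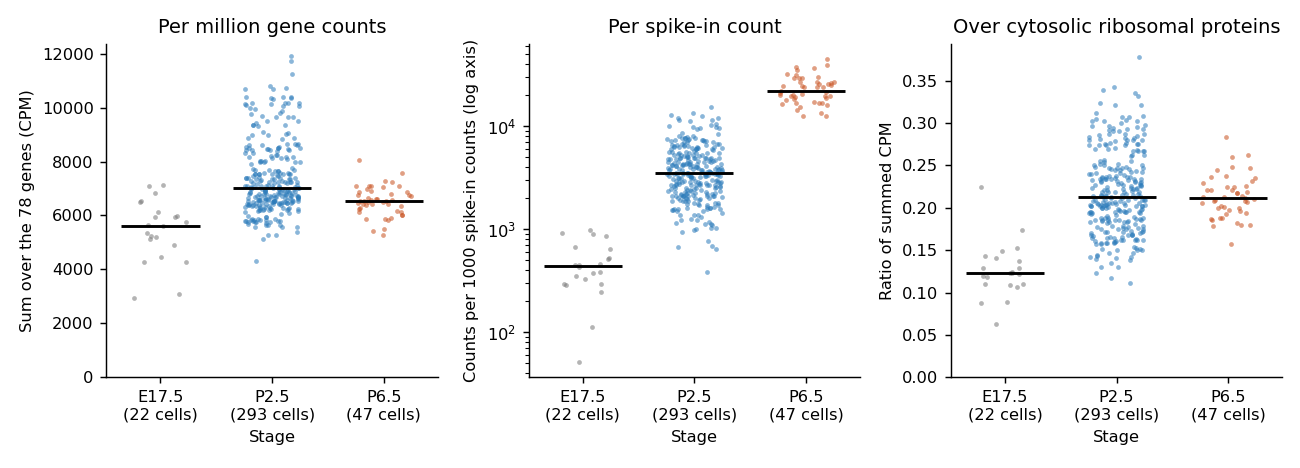
Summed level of the 78 mitochondrial ribosomal protein genes in each cell (points) at the 3 stages, with the median as a bar: as CPM, as counts per 1000 spike-in counts on a log axis, and as a ratio to the summed CPM of cytosolic ribosomal protein genes. The CPM medians are 5616, 7012 and 6539, the spike-in medians go from 438 to 3485 and 22110, and the ratio goes from 0.123 to 0.213 and 0.211.

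Ratios to other gene groups in the same cell do not depend on how a library is scaled. Cytosolic ribosomal protein genes, which build the ribosomes outside mitochondria, had medians of 42083, 34078 and 31225 CPM at the 3 stages. The mitochondrial to cytosolic ratio was 0.123 in E17.5 cells (0.0629 to 0.225). It was 0.213 in P2.5 cells (0.111 to 0.378), and P6.5 cells had 0.211 (0.157 to 0.284). In FPKM the same ratio was 0.0598, 0.133 and 0.143. The 13 mRNAs encoded by the mitochondrial genome had medians of 16863, 16739 and 9505 CPM. The ratio of nuclear-encoded mitoribosome mRNA to these was 0.317 in E17.5 cells (0.0633 to 0.634). It was 0.423 in P2.5 cells (0.137 to 0.969), and P6.5 cells had 0.692 (0.414 to 1.998). In FPKM the ratio was 0.294, 0.285 and 0.477, so its step between P2.5 and P6.5 was present in both tables and its step between E17.5 and P2.5 in counts alone. Several mitochondrial rows, such as mt-Co2 with 18.6 CPM at P2.5 beside 5985 CPM for mt-Co1 (both chosen after their values were seen), held few counts.

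Between E17.5 and P2.5, 14 of the 77 measured members were at least 2-fold higher and 1 was at least 2-fold lower. Over all 17421 genes measured, 22.6% were at least 2-fold higher and 32.4% at least 2-fold lower, so the members' count of higher genes was near the background and their count of lower genes was under it. The median log2 ratio of the members was 0.34, against -0.26 over all genes, a difference of 0.60. With TMM scaling, which moves the median of all genes from -0.26 to 0.15, the members' median was 0.70, and 26 were 2-fold higher and 0 lower, beside 29.5% and 25.5% of all genes. Without E17.5 library 20, 2 members were 2-fold lower. With the 2 E17.5 cells low in markers of other cell types alone, 31 members were 2-fold higher and 3 lower, beside 42.1% and 25.96% of all genes, and the median was 0.70 against 0.45 over all genes. Per spike-in count all 77 were at least 2-fold higher, as were 79.6% of all genes, and the median was 2.69 against 2.11.

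The small subunit had a higher median than the large subunit in this comparison. Its 26 measured members had a median log2 ratio of 0.61 and 7 were at least 2-fold higher. The 50 measured members of the large subunit had a median of 0.18, with 6 higher and 1 lower. Of all genes, 22.6% were higher and 32.4% lower. The 10 proteins of the small subunit found only in mitochondria had the highest group median, 0.86, with 4 of 10 at least 2-fold higher and the lowest member at 0.10. The 16 small subunit proteins with bacterial counterparts had a median of 0.36. In the large subunit the 30 with bacterial counterparts had a median of 0.32, with 6 higher and 1 lower. The 20 mitochondrial ones had a median of 0.12 with none past 2-fold in either direction in counts. In FPKM 1 of these 20 was at least 2-fold higher. In each cell, the large to small subunit ratio of summed CPM had a median of 2.39 in E17.5 cells (1.79 to 3.23). The median was 2.15 in P2.5 cells (1.74 to 2.61), and P6.5 cells had 2.11 (1.73 to 2.38). By FPKM the small subunit median was 0.54 and the large subunit median 0.22, and the small mitochondrial group was at 0.68. Among members with at most 20% of their exon bases shared with another gene, the count medians were 0.41 for the small subunit (20 genes) and 0.20 for the large (45 genes). Those with bacterial counterparts were at 0.21 in the small subunit (14 genes) and 0.32 in the large (26 genes), but at 0.43 and 0.33 in FPKM. The mitochondrial ones were at 0.64 (6 genes) and 0.13 (19 genes) in counts.

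**Figure D2:**
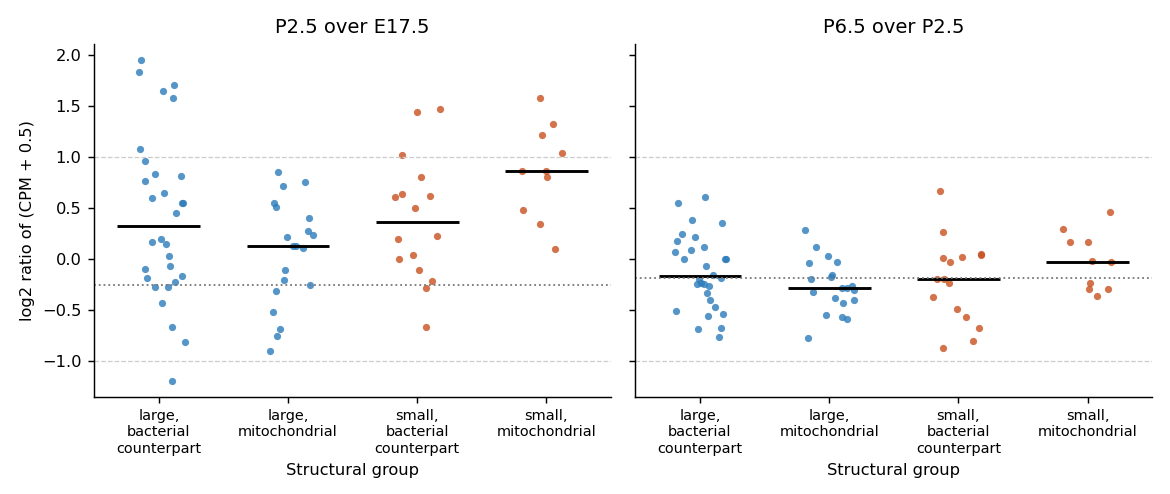
Log2 ratio of (CPM + 0.5) for each measured member (points) in 4 structural groups, large subunit in blue and small subunit in orange, with the group median as a bar. The left panel is P2.5 over E17.5 and the right panel P6.5 over P2.5. Dotted lines are the median of all measured genes (-0.26 and -0.18) and dashed lines mark 2-fold. The small mitochondrial group has the highest median on the left (0.86), and no point passes 2-fold on the right.

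The 6 members with the highest P2.5 over E17.5 ratio were Mrpl24, Mrpl33, Mrpl23, Mrpl32, Mrps33 and Mrpl55, and 5 of them are large subunit proteins with bacterial counterparts. Mrpl32, which is trimmed by a mitochondrial protease before it joins the ribosome, had 6.94, 52.7 and 118.7 CPM in the lowest, median and highest E17.5 cell. The same P2.5 values were 74.7, 180.9 and 452 CPM. The ranges overlapped in part, and a P2.5 cell was above an E17.5 cell in 98.9% of pairs. Its stage values of 58.01 and 183.5 CPM gave a log2 ratio of 1.66 (95% counting interval 1.63 to 1.69). Mrpl23 had 2.04, 44.1 and 134.7 CPM over E17.5 cells and 44.5, 214.1 and 420 CPM over P2.5 cells, a log2 ratio of 1.84 (1.81 to 1.87). At P6.5 it had 46.3, 132.3 and 201.4 CPM, between the other two stages. Mrpl24, another protein at the tunnel exit, had 14.98, 31.98 and 93.04 CPM over E17.5 cells and 51.3, 134.8 and 303.2 CPM over P2.5 cells, and the log2 ratio was 1.97 (1.93 to 2.01). Mrps33, found only in the mitochondrial small subunit, had 3.33, 31.9 and 53.7 CPM over E17.5 cells and 35.7, 95.8 and 323 CPM over P2.5 cells. Most P2.5 cells stood above the whole E17.5 range, and the log2 ratio was 1.59 (1.55 to 1.63). Mrpl55 had 3.06, 52.7 and 161.1 CPM over E17.5 cells and 78.2, 178.9 and 444 CPM over P2.5 cells, and its log2 ratio was 1.59 (1.56 to 1.62).

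At the other end stood Mrpl3, Mrpl50, Mrpl20, Mrpl39, Mrpl43 and Mrpl13, all of the large subunit. Mrpl3, one of the core proteins of the large subunit, had 25.6, 111.3 and 236.9 CPM over E17.5 cells and 0, 47.8 and 115.1 CPM over P2.5 cells. The ranges overlapped, a P2.5 cell was above an E17.5 cell in 18.2% of pairs, and the log2 ratio was -1.20 (-1.22 to -1.18). Mrpl20 had 29.8, 150.9 and 223.7 CPM over E17.5 cells, 31.2, 87.8 and 258.5 CPM over P2.5 cells and 24.6, 52.6 and 96.6 CPM over P6.5 cells, with a log2 ratio of -0.81 (-0.83 to -0.79) in the first step. Mrpl50 had a log2 ratio of -0.92 (-0.95 to -0.88), which was -0.43 without the 4 E17.5 libraries low in germ cell markers. Mrpl39, Mrpl43 and Mrpl13 were at -0.76, -0.69 and -0.67. Per spike-in count each of the 6 was higher at P2.5.

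These ratios depend in places on how reads were assigned. The exons of 28 members overlap annotated exons of another gene, and in 12 members over 20% of the bases of the principal transcript are shared. How the deposited counts treat reads that match more than one gene, or the strand, could not be taken from the sources used here. Mrpl33 held 10.9 CPM at P2.5 while its median FPKM was 263.5, and 37.03% of its exon bases are shared. Of the 14 members called higher, 6 belong to the 11 measured ones with over 20% shared. Among the 66 members with at most 20% shared, 8 were higher and 1 lower with a median of 0.23, and the median over all genes was again -0.26. In the mean FPKM over cells, 12 members were at least 2-fold higher and 1 lower, beside 23.2% and 27.4% of all genes, and 7 were higher in both tables: Mrpl23, Mrpl24, Mrpl32, Mrpl55, Mrps2, Mrps33 and Mrps36 (Mrps2, a small subunit protein, is named because it passed in both). Of these 7, Mrpl24 alone has over 20% of its exon bases shared (53.3%). Mrpl33 had a log2 ratio of 1.86 in counts and 0.09 in FPKM, and Mrps34, with 62.7% shared, had 1.49 and 0.74. In the other direction Mrps35, a small subunit protein with no overlap, had 0.87 in counts and 2.10 in FPKM. The small mitochondrial group is touched most, since 4 of its 10 members have over 20% shared, and the other 6 had a median of 0.64.

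**Figure D3:**
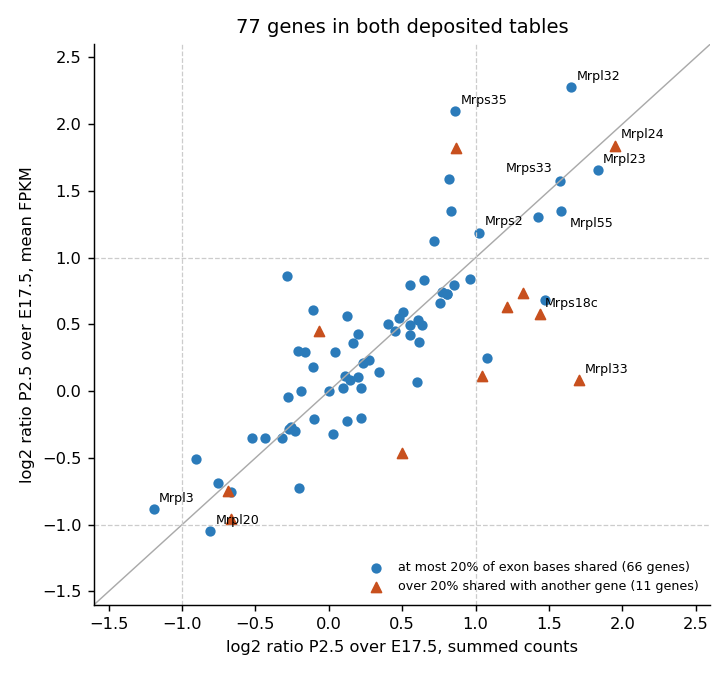
Log2 ratio of P2.5 over E17.5 for 77 members from summed counts (horizontal) and from mean FPKM (vertical). Triangles are the 11 members with over 20% of exon bases shared with another gene, circles the other 66, the solid line marks equal values and dashed lines mark 2-fold. Most points follow the line, and Mrpl33 lies far below it.

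The Mrps18 proteins form a family of 3 paralogues that sit at different places, Mrps18a in the large subunit and Mrps18b and Mrps18c in the small subunit. Mrps18a was nearly level, with stage values of 111.6, 120.7 and 122.7 CPM and log2 ratios of 0.11 (P2.5 over E17.5) and 0.02 (P6.5 over P2.5). Mrps18b had 10.2, 24.2 and 33.5 CPM, with a log2 ratio of 1.25 (1.18 to 1.33) in the first step and 0.47 (0.44 to 0.50) in the second. Mrps18c had 6.66, 18.9 and 18.5 CPM, and its first ratio was 1.504 (1.411 to 1.599). In FPKM the first step was 0.63 for Mrps18b and 0.57 for Mrps18c, under 2-fold for both, and 59.1% and 27.3% of their exon bases are shared with other genes. Mrps18a shares none, and its FPKM ratio was also 0.11.

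Mrps36 belongs to the list by its name, and is now known as a subunit of the 2-oxoglutarate dehydrogenase complex of the citric acid cycle. Its transcript had 6.35, 26.97 and 99.05 CPM in the lowest, median and highest E17.5 cell. The P2.5 values were 49.1, 99.2 and 208.6 CPM, and those of P6.5 were 113.2, 153.5 and 200.2 CPM. Every P6.5 cell was above every E17.5 cell. The log2 ratios were 1.44 (1.40 to 1.48) and 0.62 (0.61 to 0.63) for the 2 steps and 2.06 (2.02 to 2.10) between E17.5 and P6.5, the highest of all members in the last comparison.

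Between P2.5 and P6.5, none of the 77 members was 2-fold higher or lower, beside 6.90% and 9.30% of 14643 genes. The median log2 ratio was -0.20, against -0.18 over all genes, and it was 0.036 with TMM scaling, 0.14 with median-of-ratios scaling and 2.73 per spike-in count. Relative to all genes the median was -0.01, and per spike-in count it was 0.25. The highest ratios were 0.68 for Mrps6, 0.62 for Mrps36, 0.62 for Mrpl18, 0.56 for Mrpl10, 0.47 for Mrps18b and 0.38 for Mrpl34. Mrps6, a small subunit protein, had 2.32, 19.7 and 49.7 CPM over P2.5 cells and 19.6, 35.4 and 58.5 CPM over P6.5 cells, and the ranges overlapped. Of the exon bases of Mrps6, 36.1% are shared with another gene. Mrpl10, at the base of the stalk that recruits translation factors, had 0.15, 46.5 and 133.4 CPM over P2.5 cells and 38.95, 69.4 and 117.2 CPM over P6.5 cells. The lowest ratios were -0.88 for Mrps10, -0.81 for Mrps9, -0.79 for Mrpl50, -0.78 for Mrpl19, -0.69 for Mrps28 and -0.69 for Mrpl20. Mrps10 had 18.1, 70.8 and 237.8 CPM over P2.5 cells and 16.2, 40.7 and 72.1 CPM over P6.5 cells, and a P6.5 cell was above a P2.5 cell in 15.01% of pairs. In FPKM, Mrps28 alone passed 2-fold, at -1.02.

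Between E17.5 and P6.5, 17 members were at least 2-fold higher and 8 at least 2-fold lower, beside 22.7% and 39.5% of 17430 genes. The split was 32 higher to 1 lower with TMM scaling, beside 33.2% and 28.3% of all genes, and 31 to 1 with median-of-ratios scaling, beside 32.3% and 29.1%. The median log2 ratio was 0.18, against -0.48 over all genes. Without cells above 1000 CPM of markers of other cell types, which kept 2 E17.5 cells, 26 members were higher and 9 lower, beside 41.2% and 30.1% of all genes, with a median of 0.63 against 0.30 over all genes. By counts and by FPKM alike, 7 members were higher (Mrpl24, Mrpl32, Mrpl47, Mrpl55, Mrps2, Mrps33, Mrps36) and 5 were lower (Mrpl13, Mrpl20, Mrpl43, Mrpl50, Mrps9), lists chosen for passing in both. The highest ratios after Mrps36 were 1.97 for Mrpl24, 1.86 for Mrpl33, 1.75 for Mrps33, 1.72 for Mrps18b and 1.59 for Mrpl32. The lowest were -1.70 for Mrpl50, -1.50 for Mrpl20, -1.48 for Mrps9, -1.40 for Mrpl3, -1.15 for Mrpl13 and -1.08 for Mrpl45, a protein that holds the ribosome at the inner membrane. Per spike-in count all 77 were at least 2-fold higher, as were 94.2% of all genes. Mrps9 had 18.5, 105.7 and 347 CPM over E17.5 cells, 16.4, 82.8 and 215.5 CPM over P2.5 cells and 16.5, 47.2 and 82.7 CPM over P6.5 cells. Among the large subunit proteins found only in mitochondria, 0 of 20 were 2-fold higher and 4 were lower in counts. The shares of all genes were 22.7% and 39.5%, and in FPKM 1 of the 20 was higher.

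Subunits that carry other names did not move as 1 group. Of 5 such genes, 1 was at least 2-fold higher and 1 lower from E17.5 to P2.5, beside 22.6% and 32.4% of all genes. Gadd45gip1, a large subunit protein near the tunnel exit, had 21.996, 63.3 and 81.6 CPM at the 3 stages and a log2 ratio of 1.52 (1.47 to 1.58) in the first step. Ptcd3, a small subunit protein with RNA-binding repeats, had 140.9, 57.4 and 43.3 CPM and -1.30 (-1.32 to -1.28). Both kept these directions in the second step, at 0.37 and -0.41, and were the highest and lowest of the 5 in each comparison.

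The other genes of mitochondrial translation had lower median ratios than the members from E17.5 to P2.5 on the CPM scale. Transcript length was not matched between these lists and the members. Of 24 assembly factors, 4 were 2-fold higher and 4 lower at P2.5, beside 22.6% and 32.4% of all genes, with a median of 0.13. Mrm2, which methylates mitochondrial ribosomal RNA, had the highest ratio, 1.74 (1.63 to 1.85), and Trmt61b, another RNA methyltransferase, the lowest, -2.13 (-2.23 to -2.02), at 7.04 and 1.61 CPM. Mterf4, needed for large subunit assembly, had 35.2, 99.1 and 145.5 CPM and led the assembly factors from P2.5 to P6.5 (0.55) and from E17.5 to P6.5 (2.05). Mrm3 was the lowest of them from P2.5 to P6.5, at -1.07. Of 13 translation factors, 4 (30.8%) were 2-fold higher and 1 (7.69%) lower at P2.5, beside 22.6% and 32.4% of all genes. Their median was 0.16. The initiation factor Mtif3 had 13.8, 51.4 and 55.6 CPM and a first ratio of 1.89 (1.83 to 1.96). The elongation factor Guf1 had 83.6, 35.98 and 17.01 CPM, with -1.22 and -1.08 in the successive steps. Oxa1l, which inserts new proteins into the inner membrane, had the highest ratio of the translation factors from P2.5 to P6.5, 0.27.

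Mitochondrial aminoacyl-tRNA synthetases, which charge the transfer RNAs, had a median log2 ratio of 0.01 at P2.5 over E17.5. Of 17, 2 were 2-fold higher and 2 lower, beside 22.6% and 32.4% of all genes. At P6.5 over P2.5 the median was -0.51 with none past 2-fold, beside 6.90% of all genes higher and 9.30% lower. Pars2 had the highest first ratio, 1.66, and Yars2 the lowest, -1.35, and Vars2 had the highest ratio in the second step, 0.51. Among genes of mitochondrial transcription, DNA upkeep and their regulators, 2 of 14 were 2-fold higher and 3 lower at P2.5, beside 22.6% and 32.4% of all genes. Their median was -0.24, close to that of all genes. Nrf1, a transcription factor known to control genes of the respiratory chain, had 52.2, 166.9 and 165.1 CPM, a first ratio of 1.68 (1.64 to 1.71) and -0.01 in the second step. Among those with at least 5 CPM in the higher stage, Twnk, the mitochondrial DNA helicase, had the lowest first ratio, -1.29, Pprc1 the lowest second ratio, -1.08, and Polg, the mitochondrial DNA polymerase, the highest second ratio, 0.08. Yy1 was at 31.98, 17.4 and 8.80 CPM and had the lowest ratio of these from E17.5 to P6.5, -1.86.

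The promoters of the members were searched for motifs of factors known to act on such genes. RefSeq windows from 250 bases before to 50 bases after a start (GRCm38.p6) were found for 69 of the 78 genes, 75 windows in all. The motifs searched, on both strands, were GCGC, any base and TGCGC for NRF1, CCGGAAG for ETS factors and AAGATGGCG for YY1. The last letters of the ETS motif are the first of the YY1 motif, so a stretch can hold both. The NRF1 motif was in 17.3% of member windows and 4.60% of all 32851 windows, the ETS motif in 34.7% and 8.86%, and the YY1 motif in 10.7% and 1.40%. In cytosolic ribosomal protein genes the shares were 7.79%, 35.1% and 7.79%. Members with and without a motif overlapped in their ratios. The median log2 ratio of P2.5 over E17.5 was 0.14 with (13 genes) and 0.45 without (55 genes) an NRF1 match, 0.27 and 0.45 for ETS (25 and 43 genes), and 0.59 and 0.23 for YY1 (8 and 60 genes). The 100 bases before the start are shown for members at both ends of the ratios, with every match in capitals. None of these 6 windows overlaps an exon annotated in GENCODE M21. Those of Mrpl24, Mrpl33, Mrpl23, Mrpl32 and Mrps33 do and are not shown, and that of Mrpl32 holds an NRF1 match 87 to 78 bases before the start.
Mrpl34, chr8:71464826-71464925, plus strand: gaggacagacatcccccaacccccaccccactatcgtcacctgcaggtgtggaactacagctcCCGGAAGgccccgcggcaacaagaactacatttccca
Mrpl55, chr11:59202386-59202485, plus strand: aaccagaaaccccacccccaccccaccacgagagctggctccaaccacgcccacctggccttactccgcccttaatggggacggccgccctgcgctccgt
Mrps36, chr13:100744660-100744759, minus strand: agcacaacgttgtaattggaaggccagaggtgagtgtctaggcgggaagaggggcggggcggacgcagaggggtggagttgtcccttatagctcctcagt
Mrpl20, chr4:155802778-155802877, plus strand: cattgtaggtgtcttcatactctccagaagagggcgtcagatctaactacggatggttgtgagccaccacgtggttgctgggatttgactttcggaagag
Mrpl43, chr19:45006443-45006542, minus strand: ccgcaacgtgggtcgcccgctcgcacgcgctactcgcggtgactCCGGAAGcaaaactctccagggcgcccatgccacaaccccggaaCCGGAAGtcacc
Mrpl45, chr11:97315616-97315715, plus strand: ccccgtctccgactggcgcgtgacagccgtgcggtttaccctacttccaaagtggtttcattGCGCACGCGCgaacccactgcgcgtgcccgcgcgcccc
The ETS motif thus stands before the start of Mrpl34 (log2 ratio 0.94 from E17.5 to P6.5) and, in 2 copies, of Mrpl43 (-1.08), and the NRF1 motif before that of Mrpl45 (-1.08). Mrpl34 is among the ends of the ratios for P6.5 over P2.5 alone. Mrpl55, Mrps36 and Mrpl20 hold none of the 3 motifs in these letters. Without the 4 E17.5 libraries low in germ cell markers the log2 ratio of Mrpl34 was 1.95. Mrpl43 shares 27.5% of its exon bases with Twnk, on the opposite strand, and both genes had lower levels at P2.5 than at E17.5 on the CPM scale.

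Within the P2.5 cells the members went up and down together. The Spearman correlation of a member's CPM with the sum of the others had a median of 0.45 over the 77 members, from -0.14 to 0.80, and was positive for 75. For 10454 other genes correlated with the sum of the members, the median was -0.01 and 5.84% lay above the members' median. All correlations here are over cells of 1 stage, which share their source, and are given as a description. The summed large and small subunit genes had a rho of 0.86 (Pearson r 0.90). The members closest to the rest were Mrpl54 (0.80), Mrpl55 (0.77) and Mrpl42 (0.75), and those farthest were Mrps6 (-0.14), Mrpl3 (-0.01) and Mrpl10 (0.01). In FPKM the last 3 had 0.04, 0.02 and 0.08 and the median was 0.49. The small subunit proteins with bacterial counterparts had the highest group median, 0.52, and the mitochondrial ones of the same subunit the lowest, 0.32.

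The sum of the members differed 2.76-fold between the lowest and the highest P2.5 cell and 1.63-fold between the 10th and the 90th percentile. Cells with more of it had less of the genes that rise with oocyte growth, such as the zona pellucida genes (rho -0.46), and more of the germ cell markers (0.60) and the mitochondrial mRNAs (0.36). Its rho with cytosolic ribosomal protein genes was 0.19, with subunits of other names 0.64, with assembly factors 0.40, with translation factors 0.14 and with synthetases -0.14. Against total gene counts rho was -0.24, against gene counts per spike-in count -0.21 and against erythroid markers 0.34. Dppa3 alone held 2165 of the 4019 CPM of germ cell markers in the P2.5 stage sum, and rho for single markers was not computed.

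Transcript length moved with this pattern. The members are short, with a median principal transcript of 1252 bases. Over P2.5 cells their sum had a rho of 0.90 with the sum of 3628 other coding genes under 1000 bases. Cytosolic ribosomal protein genes were left out of these 3628, and no minimum level was set. The 3628 genes had summed medians of 53165, 81360 and 84009 CPM at the 3 stages. The correlations by length class are of single coding genes with a mean of at least 5 CPM over P2.5 cells. They keep cytosolic ribosomal protein genes and leave out mitochondrially encoded ones. Other genes under 1000 bases had a median rho of 0.34 with the members' sum, and those of 4000 bases or more -0.12, while the members in these classes had 0.52 (25 genes) and 0.32 (8 genes). The share of other genes above the median of the members in their class was 27.9% under 1000 bases, 12.7% from 1000 to under 2000, 1.98% from 2000 to under 4000 and 1.82% in the longest class, against the 5.84% over all lengths. For genes of 2000 bases to under 4000 the values were 0.44 (16 members) and -0.05. The summed members under 1000 bases and those of 2000 bases or more had a rho of 0.85 with each other. The ratio between stages also moved with length. For P2.5 over E17.5 the median log2 ratio of other genes went from 0.23 under 1000 bases to 0.11, -0.13 and -0.32 in the longer classes, while that of the members was 0.64, 0.37, 0.01 and 0.13. In this comparison the members were thus higher than other genes of the same length class in each of the 4. For P6.5 over P2.5 they were lower in each. There the members had -0.16, -0.18, -0.24 and -0.25, against -0.09, -0.13, -0.15 and -0.19 for other genes. The part of length in the members' ratios was not tested further.

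**Figure D4:**
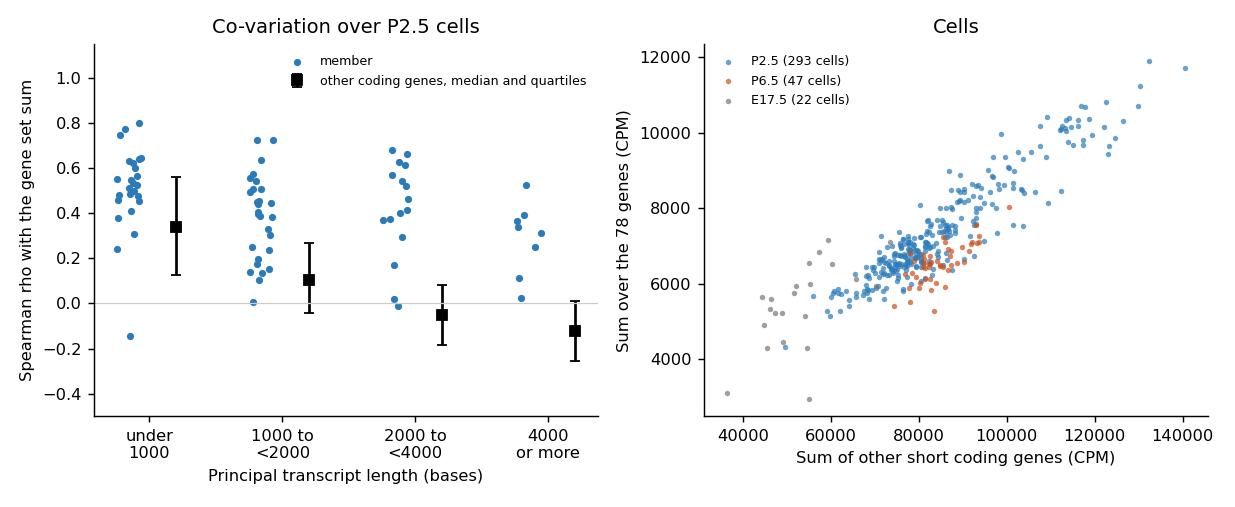
Left, Spearman rho over the P2.5 cells between a gene and the summed mitochondrial ribosomal protein genes (each member against the sum of the others) by principal transcript length, with members as points and other coding genes as median and quartiles. Right, the summed members against the sum of 3628 other short coding genes in each cell, both in CPM, with the 3 stages in different colours. Cytosolic ribosomal protein genes are left out of the 3628. The members' medians (0.52, 0.40, 0.44 and 0.32) lie above those of other genes (0.34, 0.10, -0.05 and -0.12) in each class, and the P2.5 cells form a single band (rho 0.90).

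The median member varied less from cell to cell than most other genes within the members' range of mean level. In CPM that range ran from 7.39 to 220, and levels were not matched within it. Their CV over P2.5 cells had a median of 36.8%, against 59.97% over 8842 other genes in the same range of mean CPM, and in FPKM the medians were 39.3% and 49.8% (6529 other genes). The steadiest were Mrps24 (23.1%), Mrpl30 (25.1%), Mrps35 (28.02%) and Mrpl4 (28.04%). Mrps24, a small subunit protein with a bacterial counterpart, had 62.6, 188.7 and 348 CPM in the lowest, median and highest P2.5 cell. The least steady were Mrps34 (64.99%), Mrpl50 (62.1%), Mrpl19 (57.3%) and Mrpl33 (49.2%). Over these cells Mrps34 and Mrpl33 had means of 7.39 and 11.1 CPM, and Mrpl50 and Mrpl19 had 28.8 and 40.9 CPM. After each cell was thinned to 400000 counts, Mrps34 had a count in 88.1% of cells and Mrpl50 in 96.2%.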

How the data were processed

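Single female germ cells of 3 stages were measured by Smart-seq2 (22 libraries from E17.5, 317 from P2.5, 47 from P6.5). Raw counts and FPKM values were deposited by the authors, the latter scaled to transcript length and depth. The submitters' processing notes list RSEM 1.3.3, STAR 2.7.10b, mm10 and HTSeq 0.13.5. The sources used here do not say which tool made which table, nor the annotation or strand setting. Library pairs with a median chi-square per gene under 1.5 were merged, which left 293 P2.5 cells. Every cell of a stage was added up, and the sum was expressed as counts-per-million (CPM) after the 92 spike-in rows were set aside. Ratios of single genes are of CPM, with an exact conditional Poisson 95% interval, which covers the counting of reads only. Lists, medians and 2-fold calls used CPM + 0.5. No test was run. Structural groups come from textbook knowledge, and exon overlap and length from GENCODE M21 (APPRIS principal transcripts). The counts of 360 cells matched their own FPKM column best, and those of E17.5 libraries 4 and 7 did not (0.766 against 0.779 and 0.732 against 0.774 by Pearson correlation). Ratios were checked on simulated counts. TMM factors came from edgeR 4.0.16. The alternatives were other scalings, FPKM, and leaving out E17.5 libraries, cells with markers of other cell types or members with exon overlap.

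Named members are those with the 6 highest and 6 lowest ratios in a comparison (5 CPM or more in the higher stage), the 4 highest and lowest by P2.5 FPKM and by CV, the 3 highest and lowest by rho, the Mrps18 genes, Mrps30 and Mrps36, and the ends of each list of other genes, of which 1 is not reported here. The members and lists were chosen with earlier results of these data known.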

Additional observations from a re-analysis of the deposited data

How the results depend on the processing

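The median log2 ratio of the members over all comparisons with E17.5 stayed above 0 in every alternative run, and so did its difference from the median of all genes. For P2.5 over E17.5 the median was 0.70, 0.56 and 2.69 with TMM scaling, median-of-ratios scaling and per spike-in count, with 26, 22 and 77 members at least 2-fold higher and 0, 0 and 0 lower. Of all genes, 29.5%, 26.5% and 79.6% were higher and 25.5%, 27.9% and 5.63% lower. For P6.5 over E17.5 the same settings gave medians of 0.78, 0.74 and 5.48, with 32, 31 and 77 higher and 1, 1 and 0 lower. Here 33.2%, 32.3% and 94.2% of all genes were higher and 28.3%, 29.1% and 2.03% lower. For P6.5 over P2.5 the median changed sign, to 0.036, 0.14 and 2.73. There 1 member was higher under median-of-ratios and 77 per spike-in count, beside 11.2% and 94.9% of all genes. These 3 settings multiply all genes of a stage by 1 factor, and the minimum of 1 CPM and the added 0.5 CPM were applied after it, so the genes tested changed. The difference from the median of all genes went from 0.67 to 1.36 per spike-in count for P6.5 over E17.5 and from -0.01 to 0.25 for P6.5 over P2.5. Leaving out cells with over 1000 CPM of markers of other cell types kept 2 E17.5 cells and gave medians of 0.70 and 0.63 over E17.5. With these cells 31 and 26 members were higher, beside 42.1% and 41.2% of all genes, and 3 were lower at P2.5. The ratio of summed levels was 1.28 for P6.5 over E17.5. The cause was not tested. FPKM called 1 member lower at P6.5 over P2.5, also among members with at most 20% exon overlap. In that smaller set, which was chosen after seeing the data, 8 (P2.5) and 10 (P6.5) were higher than at E17.5 in counts, beside 22.6% and 22.7% of all genes. FPKM gave 10 higher and 5 lower at P6.5, beside 24.5% and 32.3% of all genes. Leaving out each E17.5 library in turn gave medians of 0.26 to 0.43, 12 to 18 higher and 1 to 2 lower for P2.5, and 0.15 to 0.23, 15 to 19 higher and 6 to 8 lower for P6.5. Per spike-in count, each of the lowest ratios named in the 3 comparisons turned from below to above 0. Those past 2-fold in CPM became, for P2.5 over E17.5, Mrpl3 (1.20), and for P6.5 over E17.5, Mrpl50 (3.63), Mrpl20 (3.84), Mrps9 (3.86), Mrpl3 (3.93), Mrpl13 (4.19) and Mrpl45 (4.26). By FPKM, 1 of the 6 highest or 6 lowest ratios of a comparison changed sign, that of Mrpl33 for P6.5 over E17.5, to -0.87. No paired analysis was possible because library numbers only name cells and no test was run. Each stage is 1 sample, so stage and collection cannot be told apart.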
